A study of Homo sapiens with 29 samples.

Results

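The pyrimidine and deoxynucleotide synthesis enzymes are described here as 9 named genes, CAD, DHODH, UMPS, CTPS1, CTPS2, TYMS, TK1, RRM1 and RRM2. They were chosen by name from the 23710 gene symbols of the deposited expression table, and all 9 passed the minimum level of 1 FPKM in 3 libraries in every comparison. FPKM stands for fragments per kilobase of transcript at a common depth, a level per length. Messenger RNA was sequenced from H460 and H2122, established human non-small cell lung cancer lines in which KEAP1 is mutated and the transcription factor NRF2, which KEAP1 normally sends to the proteasome, builds up. The knockdown groups were H2122 with hairpins against NRF2 (shNRF2) or, as the control, against GFP (shGFP), both taken at 24 h, and H460 with shNRF2, shNR0B1, shSNW1 or shGFP, all taken at 72 h. NR0B1 is an orphan nuclear receptor, and SNW1 acts in splicing and as a partner of transcription factors. H460 cells were also treated for 12 h with BPK29 or BPK9, each at 30 µM and known here only by code, or with the solvent DMSO. Each of these 9 groups holds 3 libraries. How many hairpins were used per target, and whether the 3 libraries of a group came from separate cultures, is not given in the sources used here, so the spread behind each p-value is that of libraries and may be technical alone. Cell line and time after knockdown cannot be told apart.

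Cells build pyrimidines in a fixed order: CAD and DHODH make orotate, UMPS turns it into UMP, and the CTP synthases CTPS1 and CTPS2 convert UTP into CTP. Ribonucleotide reductase, built of RRM1 and RRM2, reduces ribonucleotides to the deoxynucleotides that DNA needs, and thymidylate is then made anew by TYMS or recovered from thymidine by TK1. TYMS, TK1, RRM1 and RRM2 are known for higher transcript levels in S phase, NRF2 is known to support the supply of ribose and one-carbon units that these enzymes consume, and MYC is a known activator of several of these genes, CAD among them.

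The 250 bases before the start of a gene are shown for 5 members, because the results turn on RRM2 and TYMS, which fell furthest after NRF2 knockdown in H460, on DHODH and TK1, whose fall differed between the lines, and on CTPS2, which did not fall with the rest after NRF2 knockdown. The sequences are from RefSeq on build GRCh38.p14, in which all 9 members matched by symbol, and each is given 5′ to 3′ on the gene's own strand. The windows are chr2:10122489-10122738 on the plus strand for RRM2, chr17:78187053-78187302 on the minus strand for TK1, chr16:72008494-72008743 on the plus strand for DHODH, chr18:657403-657652 on the plus strand for TYMS and chrX:16712670-16712919 on the minus strand for CTPS2. RefSeq lists 2 start sites for RRM2, TK1 and CTPS2 each, and the window of 1 of them is printed. For RRM2 and TK1 it is the window with more motif matches. Capitals mark matches to the motifs searched.
RRM2: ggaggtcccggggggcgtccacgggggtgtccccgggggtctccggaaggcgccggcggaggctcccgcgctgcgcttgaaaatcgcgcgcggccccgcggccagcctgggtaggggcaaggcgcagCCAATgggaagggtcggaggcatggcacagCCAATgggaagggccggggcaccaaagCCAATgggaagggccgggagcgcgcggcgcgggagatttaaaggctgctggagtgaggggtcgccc
TK1: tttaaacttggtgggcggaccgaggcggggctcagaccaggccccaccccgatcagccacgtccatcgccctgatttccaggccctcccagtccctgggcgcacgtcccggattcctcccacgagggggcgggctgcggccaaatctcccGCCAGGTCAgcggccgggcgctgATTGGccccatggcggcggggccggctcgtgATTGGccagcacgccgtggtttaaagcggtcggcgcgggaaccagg
DHODH: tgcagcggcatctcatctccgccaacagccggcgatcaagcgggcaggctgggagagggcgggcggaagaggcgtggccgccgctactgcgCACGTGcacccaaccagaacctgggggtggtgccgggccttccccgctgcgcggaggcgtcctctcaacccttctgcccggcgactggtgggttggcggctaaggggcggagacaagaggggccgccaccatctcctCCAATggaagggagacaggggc
TYMS: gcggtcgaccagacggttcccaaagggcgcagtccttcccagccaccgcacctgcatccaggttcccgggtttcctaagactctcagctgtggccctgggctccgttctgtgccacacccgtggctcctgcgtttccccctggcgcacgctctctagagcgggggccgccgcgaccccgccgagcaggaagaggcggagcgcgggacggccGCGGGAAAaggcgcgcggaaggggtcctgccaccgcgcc
CTPS2: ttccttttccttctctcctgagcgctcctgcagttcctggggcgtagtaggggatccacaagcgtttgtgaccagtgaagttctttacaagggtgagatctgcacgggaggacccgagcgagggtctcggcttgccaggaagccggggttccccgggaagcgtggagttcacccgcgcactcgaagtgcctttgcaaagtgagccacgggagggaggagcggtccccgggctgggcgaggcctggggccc

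These 4 kinds of motif were searched on both strands. They were the E2F forms TTTCCCGC, TTTCGCGC, TTTGGCGC and TTTGCCGC, the E-box CACGTG, the CCAAT box CCAAT, and the core of the antioxidant response element to which NRF2 binds, TGACNNNGC. No matches overlapped each other in the windows printed. The CCAAT box was matched in 5 of the 9 members, CAD, DHODH, TK1, RRM1 and RRM2, against 37.0% of the 27305 genes with such a window, and the printed RRM2 window holds 3 of them, at 123, 93 and 66 bases before the start. The antioxidant response core was matched in TK1 and RRM1, or 2 of 9 members against 13.2% of all genes. A gene counted if the window of any of its start sites matched. The TK1 window that is not printed held 0 matches of any motif, and that of RRM2 held 1 CCAAT box. An E2F form was matched in TYMS alone among the 9, at 39 bases before the start, against 3.40% of all genes, and the E-box in DHODH alone, against 7.73%. UMPS, CTPS1 and CTPS2 held none of these letters in their windows. A match is a string of letters and was not tested as a binding site. Bases outside these windows, among them those after the start, were not searched.

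The libraries held 16709805 to 24613353 reads in the knockdown groups and 19077406 to 24824335 in the compound groups, as recovered from the FPKM values. A member had from 121 reads, for DHODH in a shNRF2 library of H2122, to 10395 reads, for RRM2 in a shGFP library of H460, in the knockdown libraries, and from 672 reads, for DHODH, to 18206 reads, for RRM2, in the compound libraries. The coefficient of variation of a member within a group had a median of 3.52% over 54 gene and group pairs, and it reached 14.5% for TYMS in the shNRF2 libraries of H2122. NFE2L2, the gene of NRF2, averaged a log2 change of -1.11 in H2122 and -0.67 in H460 after shNRF2, NR0B1 changed by -1.34 after shNR0B1, and SNW1 by -0.65 after shSNW1, so each hairpin lowered its target. NR0B1 also fell after shNRF2, by 2.27 on the log2 scale in H460 and by 3.32 in H2122. Of the epithelial markers, KRT8, KRT18 and KRT19 were high in both lines, while EPCAM lay between 0.404 and 1.40 FPKM and CDH1 at or near 0 in H460. The lung lineage markers NKX2-1 and SFTPC were at or near 0 in every knockdown library.

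In the shGFP libraries the members covered a wide range of levels. In H460 the order of mean FPKM was TYMS at 149 ± 7.96, RRM2 at 125 ± 4.26, RRM1 at 62.3 ± 0.97, CTPS1 at 60.0 ± 0.323, TK1 at 50.8 ± 2.81, CAD at 21.6 ± 1.31, DHODH at 12.4 ± 0.426, CTPS2 at 7.87 ± 0.550 and UMPS at 7.26 ± 0.0993 (SD, n = 3). Of these neighbours, CTPS2 and UMPS had overlapping libraries and the others did not. H2122 shGFP cells had RRM2 on top at 121 ± 2.16 FPKM, with TYMS at 39.4 ± 1.88 FPKM overlapping TK1 at 40.6 ± 1.96 FPKM, and CTPS2 at 10.6 ± 0.485 FPKM overlapping DHODH at 10.8 ± 0.300 FPKM at the bottom (SD, n = 3). After shNRF2 the order shifted in both lines, and in H2122 CTPS2, at 12.1 ± 0.435 FPKM, stood above CTPS1, at 9.51 ± 0.474 FPKM (SD, n = 3).

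**Figure D1:**
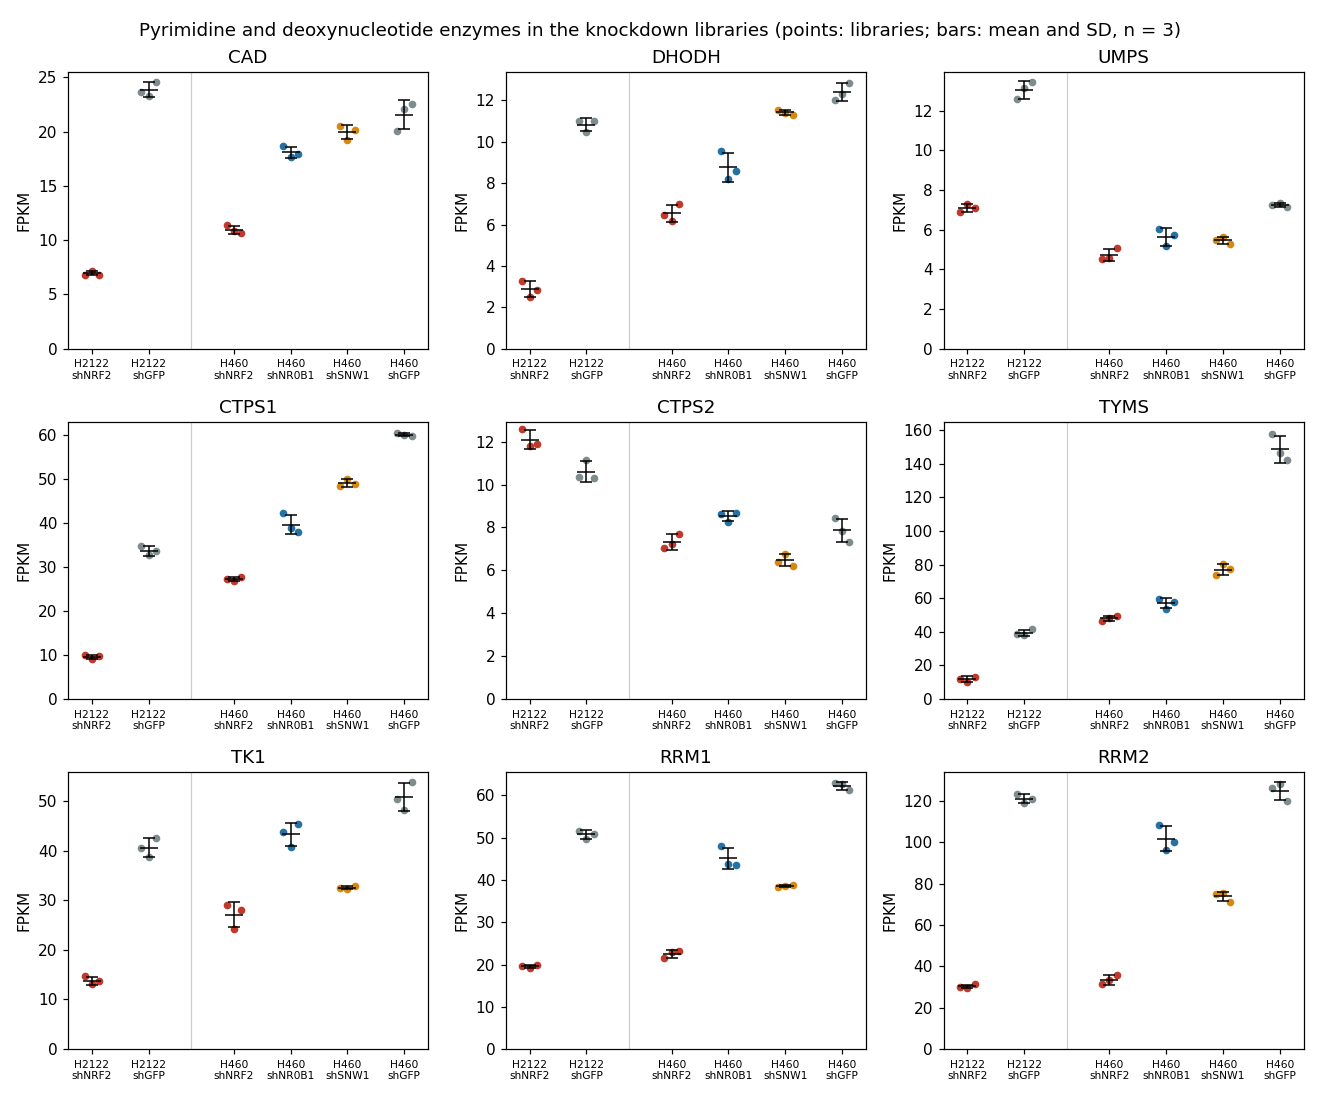
FPKM of the 9 members (vertical axes, each from 0) in the 6 knockdown groups, with knockdown groups left of shGFP within each line; points are libraries and bars are the mean and SD (n = 3). The shNRF2 libraries lie below all shGFP libraries of their line for 8 members, and CTPS2 is the member whose shNRF2 libraries lie above shGFP in H2122.

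NRF2 knockdown lowered most of the set in both lines. In H2122, 8 of 9 members fell and CTPS2 rose, where 38.5% of the 11710 genes tested fell and 48.8% rose (limma on log2(FPKM + 1), Benjamini-Hochberg adjusted p under 0.05). The median log2 change was -1.61 over the 9 members and 0.09 over all genes tested. In H460, 8 of 9 members fell and none rose, where 39% of the 11938 genes tested fell and 40.9% rose, and the median log2 change was -0.92 over the members and 0.01 over all genes. The other knockdowns moved the set less far. After shNR0B1, 8 of 9 fell and none rose, against 36.8% and 33.1% of all genes, and the median was -0.32. After shSNW1, 7 of 9 fell and none rose, against 36.4% and 30.8%, and the median was -0.36. With each library scaled to a common total of reads, the share of all calls that were lower was 43.5% in place of 54.2% after shSNW1, with 7 members still lower, and 42.7% in place of 52.7% after shNR0B1, with 8 members still lower and CTPS2 called higher. With median-ratio size factors this share was 53.3% in place of 44.1% in H2122, with 8 members still lower and none higher. All fold changes are on the log2(FPKM + 1) scale, which understates changes of genes with low levels. In bulk RNA, fewer cells in S phase and less transcript per cell cannot be told apart.

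Most S-phase genes fell alongside the members. MYC fell too after shNRF2, and its mean was somewhat above that of shGFP after the other knockdowns. The summed level of 15 genes of S phase, among them MCM2 and PCNA, was 266 to 283 FPKM in shNRF2 and 760 to 788 FPKM in shGFP libraries of H2122. In H460 that sum was 277 to 288 FPKM after shNRF2, 437 to 490 after shNR0B1, 491 to 518 after shSNW1 and 661 to 689 in shGFP libraries. Of these 15 genes, 15 fell in H2122, and in H460 14 fell after shNRF2, 12 after shNR0B1 and 13 after shSNW1. None rose after shNRF2 in either line, 1 rose after shNR0B1 and 2 rose after shSNW1. MYC was at 48.4, 46.0 and 51.6 FPKM in shNRF2 and at 173 FPKM in each of the 3 shGFP libraries of H2122. In H460 MYC fell after shNRF2, by 0.94 on the log2 scale. Its log2 changes after shNR0B1 and shSNW1 were small, at 0.17 and 0.14. MYC stood at 112% ± 0.918 of the shGFP mean after shNR0B1 and at 111% ± 3.93 after shSNW1, against 100% ± 4.66 in shGFP libraries (SD, n = 3). The part of the S-phase genes and of MYC in the members' levels was not tested. In H2122, the summed level of 5 immune markers was 105 to 108 FPKM in shNRF2 and 45.5 to 47.0 FPKM in shGFP libraries, of which CD68 made up 94.6 FPKM or more and 45.0 FPKM or more. CD79A rose, at 4.59, 4.48 and 4.76 FPKM in shNRF2 and 0.288, 0.483 and 0.211 FPKM in shGFP libraries, and LYZ rose, at 4.84, 5.25 and 5.41 FPKM in shNRF2 and 0.418, 0.308 and 0.350 FPKM in shGFP libraries, while CD3E was at 0 and PTPRC at or near 0 in all 6. In H460, the summed level of 4 fibroblast markers was 13.4 to 14.4 FPKM after shNRF2, 5.78 to 6.19 after shNR0B1, 1.72 to 1.91 after shSNW1 and 2.72 to 2.95 FPKM in shGFP libraries. Of these, DCN made up most after shNRF2, at 9.75, 11.1 and 10.2 FPKM against 0.929, 0.866 and 0.603 FPKM in shGFP libraries, COL1A1 rose after shNR0B1 by 1.30 on the log2 scale, and COL1A2 was at or near 0 in every library. The part of these markers in the members' levels was not tested.

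CAD, the large protein that opens pyrimidine synthesis, had 6.84, 7.15 and 6.83 FPKM in shNRF2 and 23.7, 23.3 and 24.6 FPKM in shGFP libraries of H2122. The groups lay far apart, and the log2 change was -1.65 ± 0.0359 (SE; adjusted p = 1.87e-10). In H460, CAD had 11.4, 10.8 and 10.6 FPKM in shNRF2, 18.7, 17.7 and 17.9 in shNR0B1, 20.5, 19.2 and 20.2 in shSNW1, and 20.1, 22.1 and 22.6 FPKM in shGFP libraries. Every shNRF2 and shNR0B1 library lay below every shGFP library, whereas shSNW1 overlapped shGFP. CAD changed by -0.92 ± 0.0465 after shNRF2, by -0.24 ± 0.0465 after shNR0B1 and by -0.11 ± 0.0465 after shSNW1 (SE), and the last of these missed the threshold (adjusted p = 0.0594). Without library 1 of shGFP, the lowest of the 3, the shSNW1 change was -0.15 and passed (adjusted p = 0.00855).

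DHODH sits in the inner mitochondrial membrane and passes electrons from dihydroorotate to the respiratory chain. It had 3.29, 2.51 and 2.84 FPKM in shNRF2 and 11.0, 10.5 and 11.0 FPKM in shGFP libraries of H2122. That is 26.6% ± 3.60 of the shGFP mean (SD, n = 3), with a log2 change of -1.61 ± 0.0695 (SE; adjusted p = 1.48e-08). In H460, DHODH had 6.48, 6.15 and 6.99 FPKM in shNRF2, 9.54, 8.20 and 8.57 in shNR0B1, 11.5, 11.4 and 11.3 in shSNW1, and 12.0, 12.3 and 12.9 FPKM in shGFP libraries. No knockdown library reached the lowest shGFP library. The log2 changes were -0.83 ± 0.0545 after shNRF2, -0.46 ± 0.0545 after shNR0B1 and -0.11 ± 0.0545 after shSNW1 (SE), and the shSNW1 change was not called (adjusted p = 0.0926).

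UMPS, the enzyme that completes UMP, fell less than CAD and DHODH after shNRF2 in both lines. In H2122 it had 6.87, 7.27 and 7.09 FPKM in shNRF2 and 12.6, 13.1 and 13.5 FPKM in shGFP libraries, a log2 change of -0.80 ± 0.0402 (SE; adjusted p = 4.4e-08). In H460, UMPS had 4.54, 4.56 and 5.10 FPKM in shNRF2, 6.01, 5.15 and 5.71 in shNR0B1, 5.46, 5.60 and 5.30 in shSNW1, and 7.25, 7.36 and 7.16 FPKM in shGFP libraries. All knockdown libraries lay below all shGFP libraries. Unlike CAD and DHODH, UMPS was called lower after all 3 H460 knockdowns, by log2 changes of -0.53 ± 0.0548 after shNRF2, -0.32 ± 0.0548 after shNR0B1 and -0.36 ± 0.0548 after shSNW1 (SE).

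The CTP synthases behaved differently from each other. CTPS1, the form that proliferating lymphocytes are known to depend on, had 9.90, 8.98 and 9.66 FPKM in shNRF2 and 34.7, 32.6 and 33.5 FPKM in shGFP libraries of H2122. Its log2 change there was -1.72 ± 0.0411 (SE; adjusted p = 3.22e-10). In H460, CTPS1 had 27.3, 26.8 and 27.6 FPKM in shNRF2, 42.1, 38.8 and 37.9 in shNR0B1, 48.3, 50.02 and 48.8 in shSNW1, and 60.3, 59.9 and 59.7 FPKM in shGFP libraries. The 4 groups did not overlap. CTPS1 stood at 45.4% ± 0.685 of the shGFP mean after shNRF2, at 66.0% ± 3.73 after shNR0B1 and at 81.8% ± 1.46 after shSNW1 (SD, n = 3), with log2 changes of -1.11, -0.59 and -0.28 that all passed the test.

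CTPS2, its paralogue, had 12.6, 11.8 and 11.9 FPKM in shNRF2 and 10.3, 11.2 and 10.3 FPKM in shGFP libraries of H2122. The shNRF2 libraries lay above the shGFP libraries, and the log2 change was 0.18 ± 0.0431 (SE; adjusted p = 0.0036). With median-ratio size factors, which moved the median of all genes by -0.14 in H2122, the CTPS2 change was 0.03 and was not called. In H460, CTPS2 had 7.02, 7.22 and 7.71 FPKM in shNRF2, 8.65, 8.25 and 8.65 in shNR0B1, 6.41, 6.78 and 6.21 in shSNW1, and 8.43, 7.85 and 7.33 FPKM in shGFP libraries. The shNRF2 and shNR0B1 libraries overlapped shGFP and the shSNW1 libraries lay below it. CTPS2 fell after shSNW1, by 0.25 on the log2 scale (adjusted p = 0.000976). Its log2 change of -0.09 after shNRF2 (95% interval -0.20 to 0.02, adjusted p = 0.129) and of 0.10 after shNR0B1 (-0.01 to 0.22, adjusted p = 0.0955) were not called. Without library 3 of shGFP the shNRF2 change was -0.14 and called, and without library 1 of shGFP the shNR0B1 change was 0.15 and called.

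TYMS, the target of the drug fluorouracil, fell after every knockdown and stood apart in H460 after loss of NR0B1. In H2122 it had 12.1, 9.79 and 13.1 FPKM in shNRF2 and 38.8, 37.9 and 41.5 FPKM in shGFP libraries, a log2 change of -1.68 ± 0.0848 (SE; adjusted p = 4.41e-08). In H460, TYMS had 46.3, 48.1 and 49.3 FPKM in shNRF2, 59.4, 53.6 and 57.8 in shNR0B1, 73.5, 80.1 and 77.2 in shSNW1, and 157, 146 and 142 FPKM in shGFP libraries. The 4 groups did not overlap, and every knockdown library held less than the lowest shGFP library by a wide margin. The log2 changes were -1.61 ± 0.0485 after shNRF2, -1.37 ± 0.0485 after shNR0B1 and -0.94 ± 0.0485 after shSNW1 (SE; adjusted p = 2.28e-12, 5.32e-11 and 1.96e-09). Among the 11938 genes tested, TYMS ranked 78 by the size of its change after shNR0B1, 284 after shNRF2 and 363 after shSNW1. ENOSF1, whose transcript is known to run antisense to the 3′ end of TYMS, had 3.99 to 7.50 FPKM in H460 and fell after each knockdown (log2 change -0.24 after shNRF2, -0.33 after shNR0B1 and -0.67 after shSNW1). The strand setting of the counting is not given in the sources used here, so reads of the overlap cannot be assigned to either gene.

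TK1, the thymidine kinase of the cytosol, had 14.7, 13.03 and 13.7 FPKM in shNRF2 and 40.7, 38.7 and 42.6 FPKM in shGFP libraries of H2122. Its log2 change was -1.49 ± 0.0475 (SE; adjusted p = 1.93e-09). In H460, TK1 had 29.0, 24.3 and 28.0 FPKM in shNRF2, 43.9, 40.8 and 45.3 in shNR0B1, 32.5, 32.2 and 32.8 in shSNW1, and 50.5, 48.2 and 53.8 FPKM in shGFP libraries. The groups did not overlap, and TK1 was lower in every shSNW1 library than in any shNR0B1 library, the opposite order to TYMS. The log2 changes were -0.89 ± 0.0606 after shNRF2, -0.23 ± 0.0606 after shNR0B1 and -0.63 ± 0.0606 after shSNW1 (SE), all called.

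RRM1, the large catalytic subunit of ribonucleotide reductase, had 19.5, 19.2 and 19.9 FPKM in shNRF2 and 51.7, 49.6 and 51.0 FPKM in shGFP libraries of H2122. It changed by -1.33 ± 0.0277 on the log2 scale (SE; adjusted p = 1.46e-10). In H460, RRM1 had 21.5, 22.9 and 23.1 FPKM in shNRF2, 48.0, 43.9 and 43.6 in shNR0B1, 38.2, 38.6 and 38.9 in shSNW1, and 63.0, 62.8 and 61.2 FPKM in shGFP libraries. None of the groups overlapped, with shNRF2 lowest, shSNW1 next and shNR0B1 nearest to shGFP. The log2 changes were -1.43 ± 0.0407 after shNRF2, -0.46 ± 0.0407 after shNR0B1 and -0.68 ± 0.0407 after shSNW1 (SE), all called.

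RRM2 is the small subunit that carries the radical and is known to be made in S phase. On the log2(FPKM + 1) scale it had the largest fall of the 9 after shNRF2 in both lines. In H2122 it had 30.1, 29.7 and 31.2 FPKM in shNRF2 and 123, 119 and 121 FPKM in shGFP libraries, a log2 change of -1.96 ± 0.0269 (SE; adjusted p = 2.29e-11). As a percentage of the H2122 shGFP mean, RRM2 was at 25.1% ± 0.664 and DHODH near it at 26.6% ± 3.60 (SD, n = 3). In H460, RRM2 had 31.2, 33.5 and 36.0 FPKM in shNRF2, 108, 96.4 and 100.3 in shNR0B1, 74.8, 75.2 and 71.3 in shSNW1, and 126, 128 and 119.8 FPKM in shGFP libraries. The groups did not overlap and stood in the same order as for RRM1. RRM2 was at 26.9% ± 1.92 of the shGFP mean after shNRF2, at 81.6% ± 4.81 after shNR0B1 and at 59.2% ± 1.74 after shSNW1 (SD, n = 3), with log2 changes of -1.86, -0.29 and -0.75 that all passed the test. RRM2 is known to have processed pseudogenes, and how reads shared with them were counted is not given in the sources used here.

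**Figure D2:**
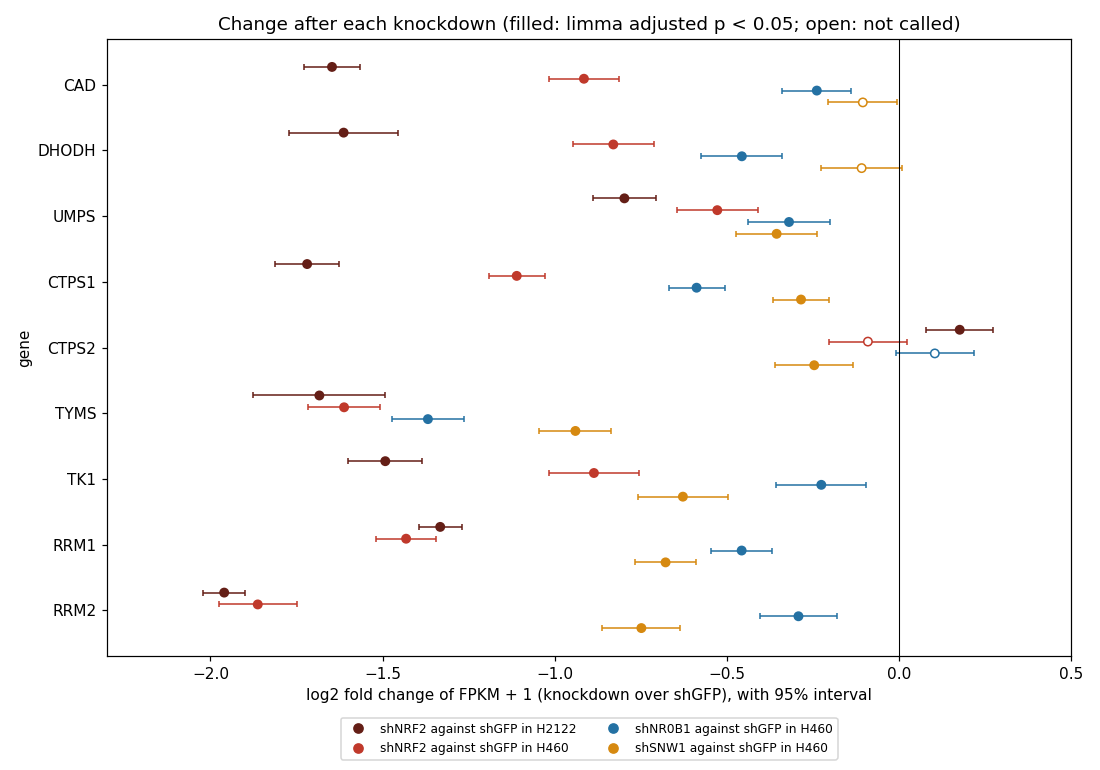
Log2 fold change of FPKM + 1 for each member (rows) after each knockdown over shGFP, with the unadjusted 95% interval; filled points were called by limma at an adjusted p under 0.05 and open points were not. RRM2 and TYMS lie furthest left after shNRF2 in H460, at -1.86 and -1.61, TYMS alone passes -1 after shNR0B1, and CTPS2 lies nearest to 0 or right of it after shNRF2 and shNR0B1.

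The response to NRF2 knockdown differed between the lines for the early enzymes and TK1, and a difference was not detected for TYMS and ribonucleotide reductase. The difference was tested as the log2 change in H2122 less that in H460, in which 34.3% of the 12798 genes tested were called lower and 37.4% higher. Of the 9 members, 5 were called lower and 1 higher. CAD changed by -1.65 in H2122 and -0.92 in H460, a difference of -0.73 ± 0.0637 (SE; adjusted p = 3.5e-07). DHODH changed by -1.61 in H2122 and -0.83 in H460, a difference of -0.78 ± 0.0928 (SE; adjusted p = 6.56e-06). These falls were larger in H2122, as were those of UMPS, CTPS1 and TK1, whose differences were -0.27, -0.61 and -0.61. CTPS2 was called higher, with a difference of 0.27 ± 0.0747 (SE; adjusted p = 0.00621). The difference was -0.07 for TYMS (95% interval -0.31 to 0.17), 0.10 for RRM1 (-0.003 to 0.20) and -0.10 for RRM2 (-0.24 to 0.04), and none of these was called. Library choice mattered at that margin, since RRM1 passed with a difference of 0.12 without library 3 of the H460 shNRF2 group, and RRM2 passed with -0.15 without its library 1. The depth of knockdown also differed, since NFE2L2 fell by 0.44 more on the log2 scale in H2122 than in H460, and its part in these differences was not tested.

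**Figure D3:**
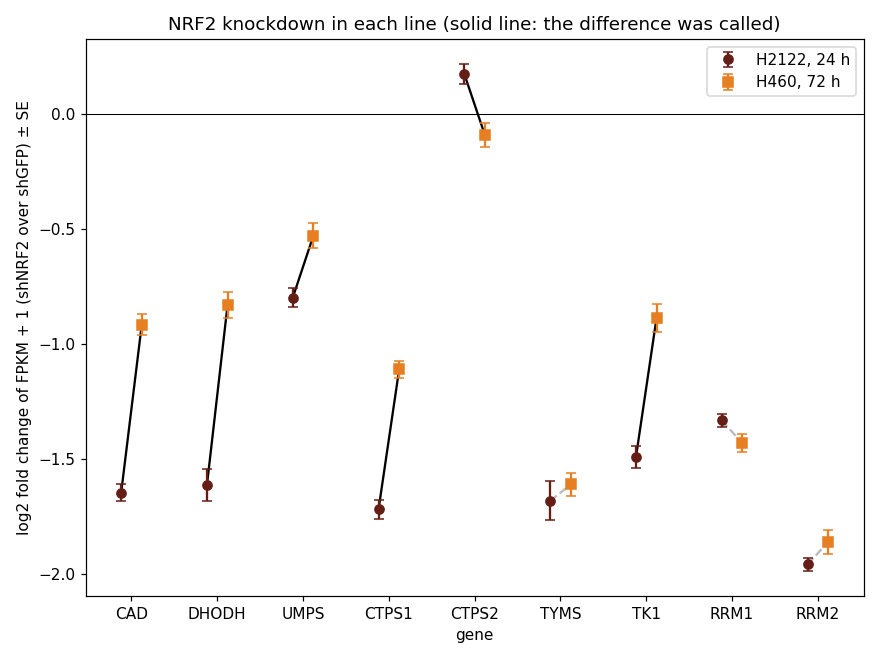
Log2 fold change after shNRF2 over shGFP (vertical axis, mean ± SE) for each member in H2122 at 24 h (circles) and H460 at 72 h (squares); a solid line joins values whose difference was called, a dashed line values whose difference was not. The solid lines are steep for CAD, DHODH, CTPS1 and TK1, while TYMS, RRM1 and RRM2 have nearly level dashed lines.

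Among the H460 knockdowns, shNRF2 left the members lowest, apart from CTPS2. The depth of knockdown differed among the hairpins. After its own hairpin, NFE2L2 stood at 62.1% of the shGFP mean, NR0B1 at 38.2% and SNW1 at 63.0%. NR0B1 stood at 19.0% after shNRF2. The part of these depths in the differences between knockdowns was not tested. The 3 comparisons below share libraries with each other and with those against shGFP. Against shNR0B1, all 9 members were lower in shNRF2, where 36.7% of all genes tested were lower and 37.8% higher, and with a common total of reads 60.9% of all calls were lower in place of 49.3%. RRM2 differed most, by -1.57, then RRM1 (-0.97), CAD (-0.68), TK1 (-0.66), CTPS1 (-0.52) and DHODH (-0.37), and UMPS, CTPS2 and TYMS least, by -0.21, -0.19 and -0.24. Against shSNW1, 8 members were lower in shNRF2 and CTPS2 was higher, where 39.1% of all genes were lower and 39.6% higher. The 8 were RRM2 (-1.11), CTPS1 (-0.83), CAD (-0.81), RRM1 (-0.75), DHODH (-0.72), TYMS (-0.67), TK1 (-0.26) and UMPS (-0.17). CTPS2 was higher there by 0.16 (adjusted p = 0.0151), a call that was lost without library 3 of shNRF2 (0.12) or without library 3 of shSNW1 (0.13). The common total moved the median of all genes by -0.10 in both of these comparisons, and CTPS2 against shSNW1 was then 0.05 and not called.

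Set against shSNW1, shNR0B1 had some members lower and others higher. In shNR0B1 against shSNW1, 4 members were lower and 4 higher, where 33.1% of all genes tested were lower and 34.7% higher. TYMS (-0.43), DHODH (-0.35), CTPS1 (-0.30) and CAD (-0.13) were lower in shNR0B1. RRM2 (0.46), TK1 (0.40), CTPS2 (0.35) and RRM1 (0.22) were higher in shNR0B1. The difference for UMPS was 0.04 (95% interval -0.08 to 0.15) and was not called. The call of CAD did not hold without library 2 or 3 of shNR0B1 or library 1 or 3 of shSNW1, with values of -0.11 to -0.13.

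Ratios between enzymes that act side by side were taken within each library, and they were chosen after the members' values had been seen. The ratio of CTPS1 to CTPS2 was 0.786 ± 0.0253 in shNRF2 and 3.18 ± 0.229 in shGFP libraries of H2122 (SD, n = 3), so the more abundant CTP synthase transcript was CTPS2 in shNRF2 and CTPS1 in shGFP. In H460 this ratio was 3.73 ± 0.150 in shNRF2, 4.65 ± 0.251 in shNR0B1, 7.59 ± 0.239 in shSNW1 and 7.65 ± 0.494 in shGFP libraries (SD, n = 3). It did not move after shSNW1 beyond the spread of the libraries. The ratio of RRM2 to RRM1 was 1.55 ± 0.0174 in shNRF2 and 2.38 ± 0.0133 in shGFP libraries of H2122, and in H460 it was 1.49 ± 0.0546 in shNRF2, 2.25 ± 0.0521 in shNR0B1, 1.91 ± 0.0696 in shSNW1 and 2.00 ± 0.0406 in shGFP libraries (SD, n = 3). The small subunit thus fell more than the large one after shNRF2 and less after shNR0B1. The ratio of TYMS to TK1 in H460 was 1.78 ± 0.195 in shNRF2, 1.31 ± 0.0389 in shNR0B1, 2.37 ± 0.115 in shSNW1 and 2.93 ± 0.255 in shGFP libraries (SD, n = 3). In H2122 it was 0.843 ± 0.102 in shNRF2 and 0.970 ± 0.0141 in shGFP libraries (SD, n = 3), and the highest shNRF2 library and the lowest shGFP library both rounded to 0.954. All 12 knockdown ratios except CTPS1 to CTPS2 after shSNW1 had libraries that did not overlap shGFP. In each of those the exact two-sided permutation test gave p = 0.1, the smallest value 3 against 3 libraries allow, which is 0.129 when adjusted over 18 tests, so none could pass.

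**Figure D4:**
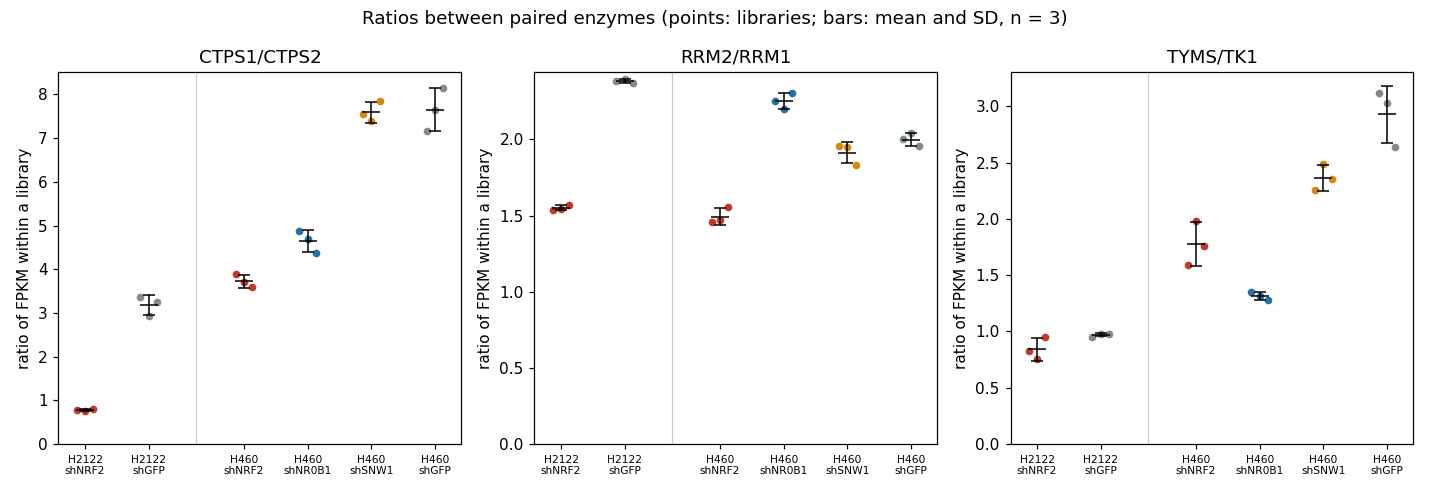
Ratio of FPKM within a library (vertical axes, from 0) for CTPS1 to CTPS2, RRM2 to RRM1 and TYMS to TK1 in the 6 knockdown groups; points are libraries and bars the mean and SD (n = 3). The CTPS1 to CTPS2 ratio is below 1 in shNRF2 of H2122 alone, at 0.786, and TYMS to TK1 in H460 is lowest after shNR0B1, at 1.31.

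The rest of the pathway was followed through 32 other genes of pyrimidine salvage, kinases, deoxynucleotide breakdown and nucleoside transport, of which 28 were tested in the knockdown fits of either line. After shNRF2, 17 fell and 9 rose in H2122 and 19 fell and 7 rose in H460, with medians of -0.26 and -0.36. Among all genes tested, 38.5% fell and 48.8% rose in H2122 and 39% fell and 40.9% rose in H460. After shNR0B1, 17 of the 28 fell and 9 rose, where 36.8% of all genes fell and 33.1% rose, and after shSNW1, 13 fell and 7 rose, where 36.4% fell and 30.8% rose, with medians of -0.20 and -0.05. The nucleoside transporter SLC29A1 fell by 2.63 on the log2 scale in H2122 and by 1.15 in H460 after shNRF2. UCK2, a uridine kinase, and DTYMK, the thymidylate kinase, fell too, at -1.78 and -1.49 in H2122. In H460 they stood at 56.4% and 48.3% of the shGFP mean after shNRF2. SHMT1, which supplies one-carbon units, fell after shNRF2 in H460, at -1.28. It stood at 39.3% of the shGFP mean there and at 39.8% in H2122. DERA, which breaks down deoxyribose phosphate, fell after shNRF2 in H460, at -1.20, and rose in H2122, at 0.15.

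A few genes of this list rose after shNRF2. TK2, the thymidine kinase of mitochondria, had 7.57, 8.48 and 7.95 FPKM in shNRF2 and 2.00, 2.15 and 2.29 FPKM in shGFP libraries of H2122. In H460, TK2 had 10.2, 10.6 and 9.44 FPKM in shNRF2 and 2.99, 2.77 and 2.87 FPKM in shGFP libraries, and the log2 change was 1.52 in H2122 and 1.51 in H460. TK2 and TK1 therefore moved in opposite directions in both lines. RRM2B, the p53-controlled small subunit of ribonucleotide reductase, rose by 1.04 in H2122 (adjusted p = 2.47e-09) and rose by 0.52 after shSNW1. In H460, RRM2B was at 128% ± 3.13 of the shGFP mean after shNRF2 and at 78.3% ± 2.69 after shNR0B1 (SD, n = 3). Besides TK2, the largest rises of this list after shNRF2 in H460 were those of UPRT, CMPK1 and SAMHD1, a dNTP hydrolase. These were 0.50, 0.42 and 0.34, while SAMHD1 fell in H2122, at -0.66. DPYD and TYMP, which break down pyrimidines, rose in H2122, by 0.77 and 0.67, and fell in H460, at -0.74 and -0.23.

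After shNR0B1 the largest fall in this list was DCK, the deoxycytidine kinase of salvage. DCK had 6.23, 5.95 and 6.26 FPKM in shNR0B1 and 18.7, 17.5 and 17.3 FPKM in shGFP libraries of H460. Its log2 change of -1.40 was near that of TYMS, and DTYMK, DCTPP1 and SLC29A1 followed at -0.87, -0.83 and -0.65. SLC29A2, UCKL1, TYMP and CMPK1 rose, by 0.73, 0.55, 0.51 and 0.41. After shSNW1, DPYD fell by 1.18 on the log2 scale, SHMT1 by 0.79 and DTYMK by 0.66, while TK2 (0.58), UPP1 (0.37) and DCTD (0.22) rose.

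The genes whose log2(FPKM + 1) most resembled 3 of the members were sought among 8200 genes over the 12 H460 knockdown libraries, which form 4 groups, so that the likeness mostly reflects group means. For CAD these were KRT80, TRIM16L and NBEAL2, with Pearson coefficients of 0.994, 0.993 and 0.993. For DHODH they were PSMC5, MCMBP and TTLL4, at 0.988, 0.988 and 0.987. For RRM2 they included UBE2T and PRIM1, at 0.997 and 0.996. These values are descriptions of shared libraries.

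In the compound experiment, levels are given only as a percentage of the DMSO mean, because the gene lengths behind those columns differ from the knockdown columns (relative lengths over 1.5 fold apart for 71.4% of 16108 genes). BPK29 lowered 8 of the 9 members and raised none, where 29.3% of the 11461 genes tested fell and 21.1% rose, with a median log2 change of -0.21 over the members and -0.02 over all genes. CTPS1 fell furthest, with BPK29 libraries at 70.6%, 69.7% and 70.6% of the DMSO mean, against 100.2%, 98.8% and 101% in DMSO libraries. The BPK29 libraries lay well below DMSO, and the log2 change was -0.50 ± 0.0286 (SE; adjusted p = 1.52e-06). TYMS stood at 75.7% ± 0.145, TK1 at 77.0% ± 1.64 and RRM1 at 79.1% ± 0.529 after BPK29, against 100% ± 2.88, 100% ± 1.23 and 100% ± 3.22 in DMSO (SD, n = 3). These 3, CTPS1 and CTPS2 were called under every alternative run. CTPS2 at 86.2% ± 5.44, CAD at 89.8% ± 4.17, RRM2 at 92.5% ± 0.194 and UMPS at 93.0% ± 0.544 were lower by less (SD, n = 3), and DHODH at 95.4% ± 1.497 was not called (adjusted p = 0.229).

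Of the smaller changes, those of CAD, UMPS and RRM2 depended on scaling or on single libraries, and that of CTPS2 did not. With a common total of reads, CAD (-0.09), UMPS (-0.04) and RRM2 (-0.05) were not called, which left 5 members, and the share of all calls that were lower was 38.8% in place of 58.1%. UMPS was also lost with the replicate number as a block (adjusted p = 0.0527) and without library 2 of DMSO or any 1 library of BPK29. CAD was lost without library 2 of DMSO or library 2 or 3 of BPK29, with changes of -0.12 to -0.15. Of the 15 S-phase genes, 12 fell and 1 rose after BPK29, with a median of -0.15, and their part in the members' levels was not tested. MYC rose by 0.18 (log2) and NR0B1 fell by 0.07. The ratio of CTPS1 to CTPS2 was 0.817 ± 0.0469 of the DMSO mean ratio after BPK29 and 1.00 ± 0.0192 in DMSO libraries (SD, n = 3). That of RRM2 to RRM1 was 1.17 ± 0.00562 after BPK29 and 1.00 ± 0.00544 in DMSO libraries (SD, n = 3), with no overlap in either ratio. After BPK9 the ratio of RRM2 to RRM1 was 1.04 ± 0.0170 and did not overlap DMSO either. That of CTPS1 to CTPS2 was 0.965 ± 0.0930 after BPK9 and overlapped DMSO (SD, n = 3). Each ratio without overlap had p = 0.1 in the exact permutation test, or 0.129 adjusted, so none passed. Of 27 other pathway genes tested, 11 fell and 3 rose after BPK29, where 29.3% of all genes tested fell and 21.1% rose. The median log2 change was -0.07 over these 27 genes and -0.02 over all genes. The falls were led by DPYD at -0.48 and SHMT1 at -0.33, and the rises by UPRT at 0.39 and DCTD at 0.24.

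None of the members was called in either direction after BPK9 at the same dose and time (limma), where 0.00873% of all genes, a single gene, were called lower and 0% higher. At an unadjusted p under 0.05 there were 1725 genes and 3 members, CTPS1, TYMS and RRM1, and voom on the recovered reads called 249 genes and 0 members. CTPS1 was at 95.4%, 90.2% and 97.6% of the DMSO mean in BPK9 libraries, and its log2 change of -0.08 had a 95% interval of -0.15 to -0.02 (adjusted p = 0.249). All 9 members had BPK9 means between 94.3% and 98.8% of DMSO, and the other log2 changes were -0.08 for CAD, DHODH and RRM1 each, -0.07 for TYMS, -0.05 for UMPS and TK1 each, -0.03 for CTPS2 and -0.02 for RRM2. Between the compounds, 6 members were lower with BPK29 than with BPK9, where 27.2% of all genes were lower and 19.7% higher, and with a common total 41% of all calls were lower in place of 58%. CTPS1 was lower with BPK29 than with BPK9 by -0.42 ± 0.0286, TYMS by -0.32 ± 0.0254, TK1 by -0.31 ± 0.0325 and RRM1 by -0.26 ± 0.0267 on the log2 scale (SE). CTPS2 was lower by -0.18 (adjusted p = 0.0138), and RRM2 differed by -0.10, a call lost without library 3 of BPK9 (-0.08). CAD (-0.07, 95% interval -0.17 to 0.03), UMPS (-0.05, -0.13 to 0.03) and DHODH (0.01, -0.08 to 0.11) were not called, and CAD was called at -0.11 without library 2 of BPK9.

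**Figure D5:**
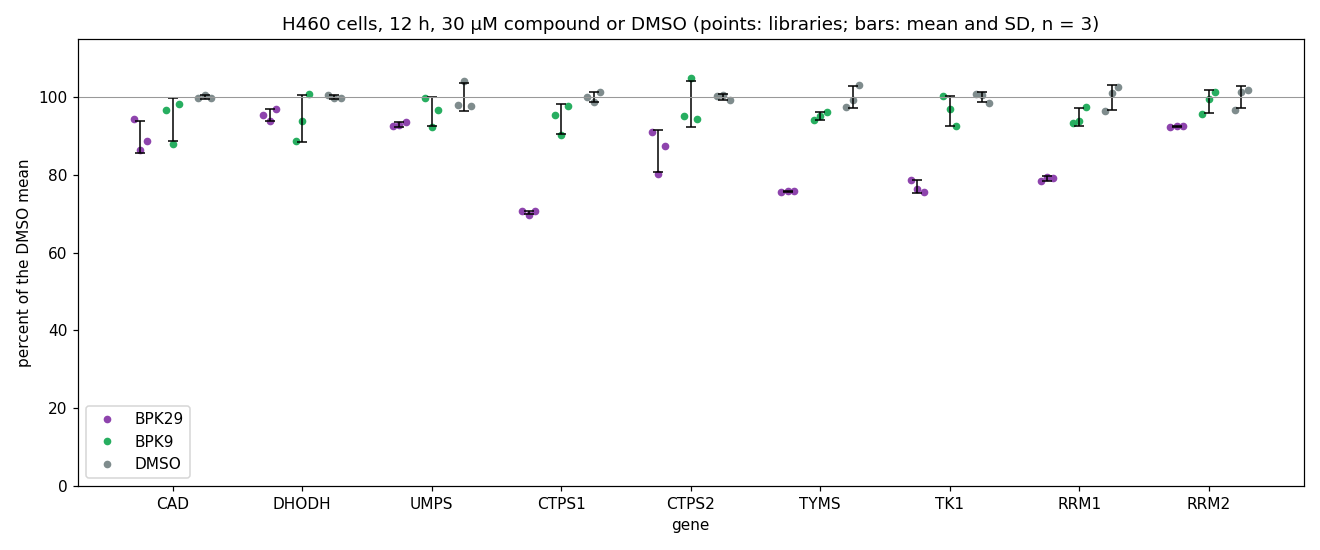
Level of each member as a percentage of the DMSO mean (vertical axis, from 0) in H460 cells after 12 h of 30 µM BPK29, 30 µM BPK9 or DMSO; points are libraries and bars the mean and SD (n = 3). CTPS1, TYMS, TK1 and RRM1 lie at 70.3% to 79.1% after BPK29, with BPK9 libraries close to DMSO.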

How the data were processed

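Polyadenylated RNA of 27 libraries was sequenced after preparation with the TruSeq RNA kit, version 2, per the labels' protocols. The authors deposited 1 table of FPKM values; STAR, featureCounts, DESeq2 and build hg19 are named in the submitters' processing notes, with no version, annotation or strand setting given in these sources. Whole reads were recovered from the steps between the deposited FPKM values (tolerance 0.02 reads), for 100% of 17871 knockdown and 100% of 16211 compound genes. Limma (3.58.1, R 4.3.3) was fitted with a variance trend to log2(FPKM + 1) of genes that reached 1 FPKM in 3 or more fitted libraries, in 4 fits: 6 H2122 libraries, 12 H460 knockdown libraries, 12 libraries for the difference between lines, and 9 compound libraries. P-values were adjusted by Benjamini-Hochberg over all genes tested and called under 0.05. Each fit was tested on simulated data. Intervals are unadjusted. The members and lists were chosen with earlier results of these data known. Every member was named in every comparison, with the hairpin targets, ENOSF1 and MYC, the 4 called genes of the other pathway list with the largest change in each direction, and 3 most similar genes for CAD, DHODH and RRM2; some genes that this rule names are not reported here. Alternatives were a pseudocount of 0.1, no filter, a common total, median-ratio factors, only the groups compared, a replicate block, each library left out and, added after seeing the data, voom on recovered reads. The NR0B1 chromatin peaks were not used here.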

Additional observations from a re-analysis of the deposited data

Results flagged for a closer look

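The change after NRF2 knockdown differed between H2122 at 24 h and H460 at 72 h for 6 of 9 members, 5 lower and 1 higher, by the test of the difference itself (limma, adjusted over 12798 genes). Among all genes tested, 34.3% were called lower and 37.4% higher, so a difference between the lines is not particular to the members. The log2 change in H2122 less that in H460 was -0.73 for CAD, -0.78 for DHODH, -0.27 for UMPS, -0.61 for CTPS1, -0.61 for TK1 and 0.27 for CTPS2. Line and time cannot be told apart. No group holds more than 3 libraries, so single libraries were not examined as outliers.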

How the results depend on the processing

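Of 1323 values of members under the alternatives, 1287 kept their side of the threshold, 26 lost and 10 gained the call, and no value that was called as reported changed sign; the cause was not tested. With 1 library left out, the sign turned for values near 0 that were not called, which were UMPS in shNR0B1 against shSNW1, TYMS between the lines, RRM2 after BPK9 and DHODH in BPK29 against BPK9. The count of members called in BPK29 against DMSO was 5 with a common total, against 8 as reported. The count of all genes called in BPK9 against DMSO was 1 as reported, 2 with no filter on low values, 9 with a common total, 249 with voom on recovered reads, 2 with only the 2 groups compared, and 1 to 2 with 1 library left out. CTPS2 in H2122 was 0.09 and not called with voom, its shNRF2 change in H460 was -0.12 with a common total and -0.13 with median-ratio factors, both called, and its shNR0B1 change was 0.18 and called with a common total; against shSNW1, shNRF2 gave 0.12 and no call with median-ratio factors. With a common total RRM1 differed between the lines by 0.15 and was called. UMPS after BPK29 was -0.08 and not called with median-ratio factors or voom, and RRM2 in BPK29 against BPK9 was -0.10 with no filter and -0.05 with a common total, neither called. The replicate block changed 1 call of a member, UMPS after BPK29 (-0.10). Deviations of libraries with the same replicate number correlated at -0.095 to 0.130. Between shNRF2 and shGFP of H2122 these were 0.054, 0.126 and 0.091, each above the highest with another number (-0.025, -0.062 and 0.015). In the H460 knockdown and compound fits the order was mixed. Correlations this small do not settle whether the numbers pair the libraries. Peaks near the members were not run, for want of an annotation of their build. Depth limits DHODH most, with 121 reads at the lowest.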
